A study of Mus musculus with 20 samples.

Results

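The WNT, NOTCH and hedgehog signalling sets are 58 of the 3886 gene sets listed in the deposited enrichment results of a mouse melanoma study. They were chosen by name: a set entered when its name contained WNT, NOTCH, HEDGEHOG, BETA_CATENIN or CTNNB1 and did not contain MYC. WNT contributed 27 sets of 15 to 469 genes, NOTCH 22 sets of 16 to 194 genes and hedgehog 9 sets of 20 to 187 genes, and no set fell in more than 1 pathway. Names ending in DN hold the genes that fell in a published experiment. They make up 3 of the WNT sets, 2 of the NOTCH sets and 1 of the hedgehog sets and are reported apart, which leaves 52 sets in the main counts.

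The libraries came from adult C57BL/6 animals and from cultured lines of that strain. Myeloid cells were obtained by removing CD3e-positive cells, which are T cells, from bone marrow or spleen. Bone marrow gave 3 libraries from animals bearing B16F10 tumours, 2 from animals bearing YUMM3.3 tumours and 3 from healthy animals, and spleen gave 2 libraries in each of the same conditions. The lines YUMM3.3 and B16F10, both mouse melanomas, gave 3 libraries each after 4 days in culture. Which animal or culture each library came from is not labelled. Depletion of T cells alone leaves B cells and other cell types in principle, and the myeloid label could not be checked against marker genes because no values per gene were analysed here.

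WNT proteins bind Frizzled receptors and LRP co-receptors. Without a ligand, a destruction complex of axin, APC and the kinases GSK3 and casein kinase 1 marks beta-catenin (CTNNB1) for the proteasome, the protease complex that breaks down ubiquitin-tagged proteins. With a ligand, beta-catenin enters the nucleus and acts with TCF and LEF factors. NOTCH receptors are cut after binding a ligand on a neighbouring cell, and the freed intracellular domain acts with RBPJ and MAML proteins on genes such as those of the HES and HEY repressors. NOTCH signalling drives T cell fate and takes part in the marginal zone B cell fate in the spleen. Hedgehog ligands bind Patched, which frees Smoothened and lets GLI factors act, while the proteasome trims or removes GLI proteins when the pathway is off.

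Every value below comes from the authors' deposited tables, which give 1 value per set and comparison. The normalised enrichment score (NES) measures how far the genes of a set gather at an end of the genes ranked by a comparison, scaled by permuted data so that sets of different size can be set side by side. Positive NES here means higher in the first-named group. Each deposited report of a myeloid comparison was taken to hold the sets raised in the group its name gives first, and the signs of a whole tissue would turn together if that reading were wrong. A set is called when its deposited false discovery rate q is below 0.05. No spread between libraries could be computed, the sequencing depth is unknown, and the q values do not measure variation between animals. In these bulk samples a lower set score can come from fewer cells of a type or from less RNA per cell, and these cannot be told apart.

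Many of the calls fell on sets that also list genes of general machinery. Reactome maps that end in protein breakdown list proteasome subunits, and maps that reach chromatin list core histones. By this background, 11 of the 52 sets were placed on a proteasome list and 2 on a histone list. No set was put on both. Whether a map on the proteasome list also lists histones was not checked, since member genes were not analysed. Of 364 pairs of a set and a comparison, 53 were called in the deposited tables. The 13 sets on these lists held 33 calls in 91 pairs, and the other 39 sets held 20 calls in 273 pairs. At least 1 call was made for 26 of the 52 sets. Over all listed sets, 8.09% to 20.1% were called higher in a comparison and 1.47% to 8.40% lower. Among the 39 sets on neither list, 0% to 7.69% were called higher and 0% to 17.9% lower. The lists were drawn up with earlier results of these data known, so the split is a description only.

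**Figure D1:**
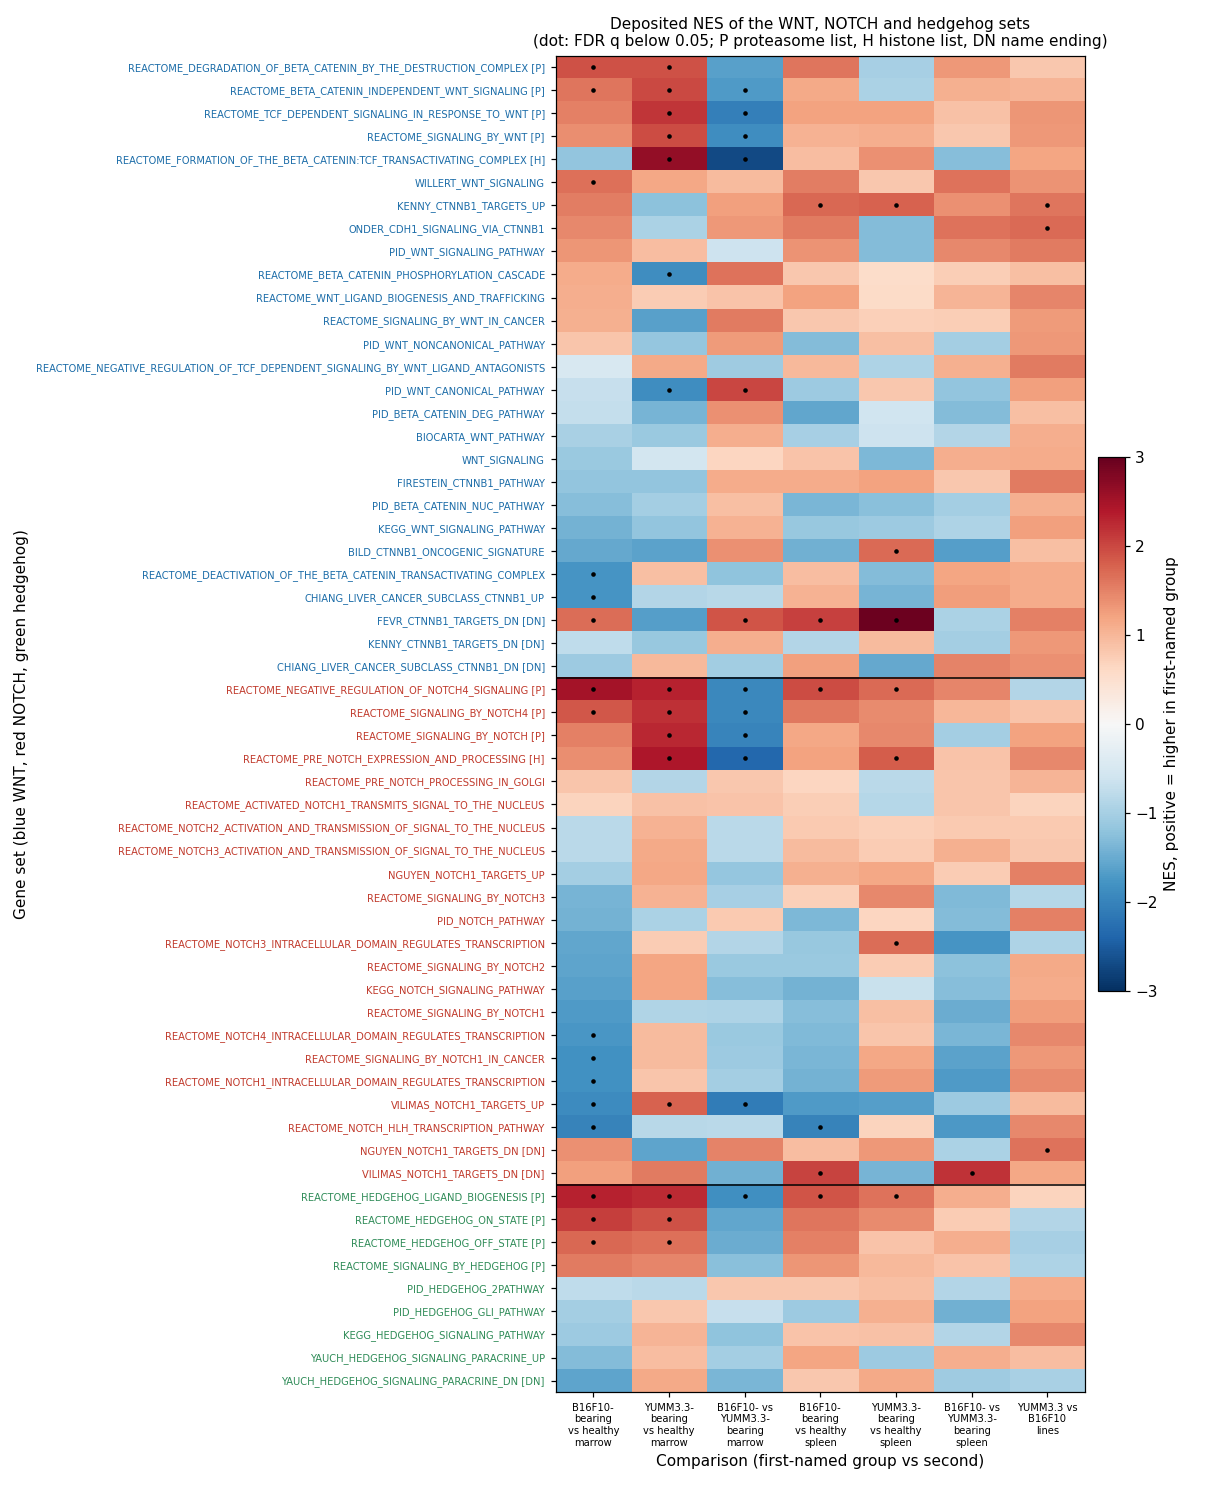
Deposited NES of all 58 sets (rows, grouped by pathway) in the 7 comparisons (columns); colour runs from blue, lower in the first-named group, to red, higher, and a dot marks a deposited FDR q below 0.05. The dots gather in the bone marrow columns and in rows marked P (proteasome list) or H (histone list), and a second run of dots in the B16F10 marrow column marks NOTCH sets with negative NES.

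With B16F10 tumours, 3 of the 4 NOTCH transcription sets, a NOTCH1 target list and a NOTCH1 map were lower in bone marrow than in healthy marrow, while 2 maps of NOTCH4 were higher. The steps of the pathway were not compared by a test. By the deposited q values, 5 of 20 NOTCH sets were lower, against 5.00% of all listed sets, and 2 were higher, against 20.1% of all listed sets. The median NES of the 20 sets was -1.40, against 0.96 over all listed sets.

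REACTOME_NOTCH_HLH_TRANSCRIPTION_PATHWAY, a set for NOTCH-driven transcription, had a deposited NES of -2.00 (q = 0.00347). VILIMAS_NOTCH1_TARGETS_UP, genes raised by active NOTCH1 in blood progenitors in a model of T cell leukaemia, had a deposited NES of -1.88 (q = 0.0128). The sets for transcription by the NOTCH1 and NOTCH4 intracellular domains had deposited NES of -1.82 (q = 0.0222) and -1.74 (q = 0.0386). REACTOME_SIGNALING_BY_NOTCH1_IN_CANCER followed with a deposited NES of -1.81 (q = 0.023). The fourth transcription set, that of the NOTCH3 domain, had -1.56 (q = 0.0959) and was not called. None of the 5 called sets is on the proteasome or histone list. Their deposited family-wise p ran from 0.23 for the NOTCH-HLH set to 1 for the NOTCH4 domain set, so none passed that stricter measure.

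Sets for receptor-level steps did not pass the threshold in the same comparison. REACTOME_PRE_NOTCH_PROCESSING_IN_GOLGI, the cutting and sugar modification of new receptors, had a deposited NES of 0.84. The activation sets of NOTCH1, NOTCH2 and NOTCH3, which cover ligand binding and release of the intracellular domain, had deposited NES of 0.66, -0.80 and -0.81. Other maps that were not called were also negative: KEGG_NOTCH_SIGNALING_PATHWAY had -1.64, the NOTCH1 map -1.69, the NOTCH2 map -1.58 and PID_NOTCH_PATHWAY -1.41 in the deposited table. Of the 16 NOTCH sets on neither list, 2 had a positive NES, and their median was -1.57.

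The higher sets were 2 maps of NOTCH4. REACTOME_NEGATIVE_REGULATION_OF_NOTCH4_SIGNALING, which covers ubiquitination and breakdown of NOTCH4, had a deposited NES of 2.49 with q listed at 0. The deposited leading edge, the genes that precede the peak of the score, held 82% of its 51 genes within the top 20% of the ranked genes. REACTOME_SIGNALING_BY_NOTCH4, which contains that step, had a deposited NES of 1.86 (q = 0.00705). Beside them, KEGG_PROTEASOME had a deposited NES of 2.52, and the part of the proteasome genes in the 2 calls was not tested.

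With YUMM3.3 tumours, none of the NOTCH sets of bone marrow was called lower. By the deposited q values, 5 of 20 sets were higher than in healthy marrow, against 9.68% of all listed sets, and 0 were lower, against 6.52%. Their median NES was 1.05, against 0.74 over all listed sets. REACTOME_PRE_NOTCH_EXPRESSION_AND_PROCESSING, which covers transcription and maturation of the receptors and is on the histone list, led with a deposited NES of 2.43. The 3 proteasome-list maps followed with deposited NES of 2.31 for NOTCH4 breakdown, 2.25 for the whole NOTCH map and 2.20 for NOTCH4 signalling. VILIMAS_NOTCH1_TARGETS_UP was the fifth, with a deposited NES of 1.77 (q = 0.0151). Of the 16 sets on neither list it was the single call, and 12 of these 16 had a positive NES.

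The transcription sets were not called in marrow with YUMM3.3. REACTOME_NOTCH_HLH_TRANSCRIPTION_PATHWAY had a deposited NES of -0.83 in YUMM3.3-bearing marrow, and the NOTCH1 and NOTCH4 domain sets had 0.83 and 0.94. The direct comparison of B16F10-bearing with YUMM3.3-bearing marrow did not call these 3 sets either, with deposited NES of -0.80, -1.01 and -1.11. NGUYEN_NOTCH1_TARGETS_UP, genes raised by NOTCH1 in keratinocytes, was called in none of the 7 comparisons, with deposited NES from -1.16 to 1.51.

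VILIMAS_NOTCH1_TARGETS_UP was called in the direct comparison. Its deposited NES in B16F10-bearing against YUMM3.3-bearing marrow was -2.09 (q = 0.000664), so this list of NOTCH1-raised genes scored lower with B16F10. The matching list of NOTCH1-lowered genes, VILIMAS_NOTCH1_TARGETS_DN, had the same sign there, at -1.44, and was not called. Against healthy marrow the DN list had 1.56 with YUMM3.3, the sign of the UP list. With B16F10 it had 1.23, the opposite sign, and neither value was called. In the direct comparison 5 of 20 NOTCH sets were lower, against 8.40% of all listed sets, and 0 were higher, against 8.09%. The other 4 lower sets were the pre-NOTCH set at -2.35, the whole NOTCH map at -1.97, NOTCH4 breakdown at -1.94 and NOTCH4 signalling at -1.93, all on the proteasome or histone list.

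In spleen the NOTCH-HLH set was again lower with B16F10. Its deposited NES against healthy spleen was -2.00 (q = 0.00699), and outside the names ending in DN it was the single NOTCH set called lower, against 1.60% of all listed sets. It ranked at place 31 of 983 sets with negative NES. NOTCH4 breakdown was likewise the single NOTCH set called higher, with a deposited NES of 1.96 (q = 0.000992), against 16.6% of all listed sets called higher. The median of the 20 NOTCH sets was -0.23, and 0.69 when the names ending in DN were kept, while that of all listed sets was 1.09. Scores of B cell and T cell receptor sets are given beside these values: KEGG_B_CELL_RECEPTOR_SIGNALING_PATHWAY had deposited NES of -2.25 in spleen and -1.87 in marrow with B16F10, and KEGG_T_CELL_RECEPTOR_SIGNALING_PATHWAY had -2.37 in spleen and -1.38 in marrow, the last not called. With YUMM3.3 the B cell set was called lower in marrow too, at -1.72 (q = 0.0366), and had 0.72 in spleen, while the T cell set had -1.40 in marrow and -1.42 in spleen and was not called. Their part in the NOTCH result was not tested.

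In spleen of YUMM3.3-bearing animals 3 of 20 NOTCH sets (15%) were higher, against 15.6% of all listed sets, so the share is near the general one. No NOTCH set was called lower, against 5.31%. The 3 higher sets were the pre-NOTCH set (deposited NES 1.82, q = 0.00578), NOTCH4 breakdown (1.71, q = 0.016) and transcription by the NOTCH3 intracellular domain (1.67, q = 0.0222). The NOTCH-HLH set had a deposited NES of 0.66 there and was not called. VILIMAS_NOTCH1_TARGETS_UP had -1.66 there and was not called, the opposite sign to its 1.77 in marrow with YUMM3.3. In spleen this list was thus negative with both tumours, at -1.70 with B16F10, also not called. The direct comparison of B16F10-bearing with YUMM3.3-bearing spleen called 0 of 20 NOTCH sets in either direction, against 9.63% of all listed sets higher and 1.47% lower. The NOTCH-HLH set stood at -1.73 and the NOTCH3 domain set at -1.76 in that deposited table, both short of the threshold.

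**Figure D2:**
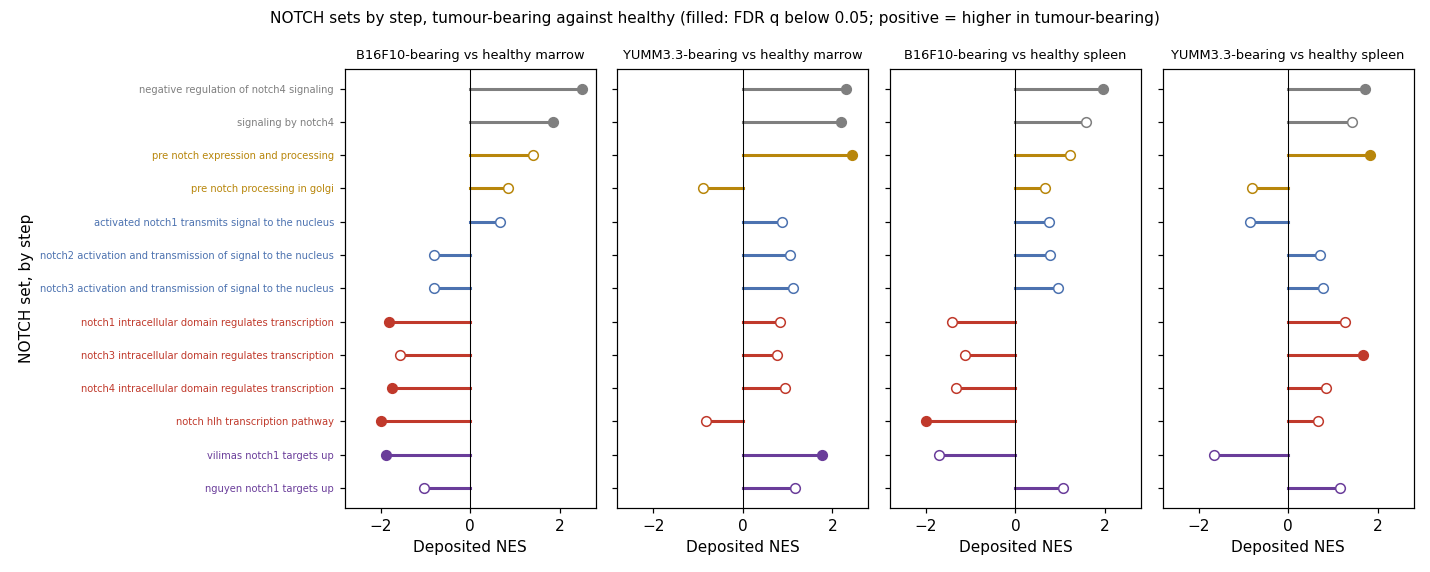
Deposited NES (horizontal axis) of 13 NOTCH sets ordered by step, from NOTCH4 turnover at the top through receptor processing and activation to transcription and target genes, in the 4 comparisons of tumour-bearing with healthy animals; positive is higher in tumour-bearing animals and filled points have a deposited FDR q below 0.05. The turnover group holds NOTCH4 breakdown and the NOTCH4 map, which contains that step. In B16F10-bearing marrow these stand at 2.49 and 1.86 and the NOTCH-HLH set at -2.00, with the activation sets between -0.81 and 0.66.

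The curated NOTCH maps are given here in all comparisons. With B16F10 or with YUMM3.3 stands for that tumour against healthy animals, between the tumours stands for B16F10-bearing against YUMM3.3-bearing animals, and the lines stand for YUMM3.3 against B16F10. Receptor production and breakdown come first. NOTCH4 breakdown had deposited NES of 2.49 with B16F10, 2.31 with YUMM3.3 and -1.94 between the tumours in marrow, 1.96 with B16F10, 1.71 with YUMM3.3 and 1.47 between the tumours in spleen, and -0.87 in the lines. The pre-NOTCH expression and processing set had deposited NES of 1.40 with B16F10, 2.43 with YUMM3.3 and -2.35 between the tumours in marrow, 1.21 with B16F10, 1.82 with YUMM3.3 and 0.86 between the tumours in spleen, and 1.44 in the lines. The Golgi processing set had deposited NES of 0.84 with B16F10, -0.88 with YUMM3.3 and 0.80 between the tumours in marrow, 0.65 with B16F10, -0.81 with YUMM3.3 and 0.83 between the tumours in spleen, and 1.02 in the lines. The breakdown and expression sets were called in several comparisons and Golgi processing, where Furin cuts the new receptor, in none.

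Ligand-driven cutting by ADAM proteases and gamma-secretase is covered by the activation sets. NOTCH1 activation had deposited NES of 0.66 with B16F10, 0.87 with YUMM3.3 and 0.85 between the tumours in marrow, 0.74 with B16F10, -0.85 with YUMM3.3 and 0.84 between the tumours in spleen, and 0.66 in the lines. NOTCH2 activation had deposited NES of -0.80 with B16F10, 1.05 with YUMM3.3 and -0.82 between the tumours in marrow, 0.78 with B16F10, 0.71 with YUMM3.3 and 0.79 between the tumours in spleen, and 0.79 in the lines. NOTCH3 activation had deposited NES of -0.81 with B16F10, 1.13 with YUMM3.3 and -0.81 between the tumours in marrow, 0.96 with B16F10, 0.77 with YUMM3.3 and 1.07 between the tumours in spleen, and 0.80 in the lines. None of these was called in a comparison.

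The sets for transcription hold RBPJ, MAML proteins and their co-regulators. The NOTCH-HLH set had deposited NES of -2.00 with B16F10, -0.83 with YUMM3.3 and -0.80 between the tumours in marrow, -2.00 with B16F10, 0.66 with YUMM3.3 and -1.73 between the tumours in spleen, and 1.44 in the lines. This set was negative with B16F10 in both tissues. The NOTCH1 domain set had deposited NES of -1.82 with B16F10, 0.83 with YUMM3.3 and -1.01 between the tumours in marrow, -1.42 with B16F10, 1.27 with YUMM3.3 and -1.70 between the tumours in spleen, and 1.42 in the lines. The NOTCH3 domain set had deposited NES of -1.56 with B16F10, 0.77 with YUMM3.3 and -0.87 between the tumours in marrow, -1.13 with B16F10, 1.67 with YUMM3.3 and -1.76 between the tumours in spleen, and -0.92 in the lines. The NOTCH4 domain set had deposited NES of -1.74 with B16F10, 0.94 with YUMM3.3 and -1.11 between the tumours in marrow, -1.33 with B16F10, 0.84 with YUMM3.3 and -1.37 between the tumours in spleen, and 1.43 in the lines. The calls among these are the 3 lower values with B16F10 in marrow named above, the NOTCH-HLH set with B16F10 in spleen and the NOTCH3 domain set with YUMM3.3 in spleen.

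The maps of single receptors and of the whole pathway join these steps. The whole NOTCH map had deposited NES of 1.52 with B16F10, 2.25 with YUMM3.3 and -1.97 between the tumours in marrow, 1.15 with B16F10, 1.45 with YUMM3.3 and -1.02 between the tumours in spleen, and 1.21 in the lines. The NOTCH1 map had deposited NES of -1.69 with B16F10, -0.91 with YUMM3.3 and -0.93 between the tumours in marrow, -1.27 with B16F10, 0.91 with YUMM3.3 and -1.48 between the tumours in spleen, and 1.26 in the lines. The NOTCH1 map was called in no comparison, and the whole map in 2. The cancer NOTCH1 map had deposited NES of -1.81 with B16F10, 0.96 with YUMM3.3 and -1.09 between the tumours in marrow, -1.38 with B16F10, 1.15 with YUMM3.3 and -1.60 between the tumours in spleen, and 1.29 in the lines. The NOTCH2 map had deposited NES of -1.58 with B16F10, 1.18 with YUMM3.3 and -1.12 between the tumours in marrow, -1.11 with B16F10, 0.76 with YUMM3.3 and -1.24 between the tumours in spleen, and 1.14 in the lines. NOTCH2, like NOTCH1, was short of the threshold throughout. The NOTCH3 map had deposited NES of -1.39 with B16F10, 1.05 with YUMM3.3 and -0.99 between the tumours in marrow, 0.72 with B16F10, 1.44 with YUMM3.3 and -1.32 between the tumours in spleen, and -0.85 in the lines. The NOTCH4 map had deposited NES of 1.86 with B16F10, 2.20 with YUMM3.3 and -1.93 between the tumours in marrow, 1.58 with B16F10, 1.42 with YUMM3.3 and 0.99 between the tumours in spleen, and 0.86 in the lines. The NOTCH4 map, on the proteasome list, was positive with B16F10 in marrow, where the maps of the other receptors were negative. KEGG_NOTCH_SIGNALING_PATHWAY had deposited NES of -1.64 with B16F10, 1.18 with YUMM3.3 and -1.28 between the tumours in marrow, -1.42 with B16F10, -0.67 with YUMM3.3 and -1.27 between the tumours in spleen, and 1.12 in the lines. PID_NOTCH_PATHWAY had deposited NES of -1.41 with B16F10, -0.96 with YUMM3.3 and 0.78 between the tumours in marrow, -1.34 with B16F10, 0.64 with YUMM3.3 and -1.29 between the tumours in spleen, and 1.51 in the lines. Neither of these last maps was called in any of the 7 comparisons.

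The WNT sets showed no shared direction in B16F10-bearing marrow. Of 24 sets, by the deposited q values, 3 were higher than in healthy marrow, against 20.1% of all listed sets, and 2 were lower, against 5.00%. At 12.5% the higher share is below that of all listed sets, and at 8.33% the lower share is near it. Their median deposited NES was 0.18, and -0.71 when the proteasome list was left out. Higher were REACTOME_DEGRADATION_OF_BETA_CATENIN_BY_THE_DESTRUCTION_COMPLEX (deposited NES 1.90, q = 0.00494), REACTOME_BETA_CATENIN_INDEPENDENT_WNT_SIGNALING (1.61, q = 0.0401) and WILLERT_WNT_SIGNALING (1.65, q = 0.0318). The first has degradation in its name, and the next covers WNT signals that bypass beta-catenin and is also on the proteasome list. WILLERT_WNT_SIGNALING, genes that respond to WNT3A in embryonal carcinoma cells, had 18% of its 17 genes in the leading edge, within the top 1% of the ranked genes.

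Lower in B16F10-bearing marrow were 2 beta-catenin sets on neither list. The Reactome set for deactivation of the nuclear beta-catenin complex, the step that ends its action on genes, had a deposited NES of -1.76 (q = 0.0329). CHIANG_LIVER_CANCER_SUBCLASS_CTNNB1_UP, genes high in liver cancers with CTNNB1 mutations, had a deposited NES of -1.78 (q = 0.0291). The general maps were not called, with deposited NES of -1.41 for KEGG_WNT_SIGNALING_PATHWAY, -0.98 for BIOCARTA_WNT_PATHWAY and -1.28 for PID_BETA_CATENIN_NUC_PATHWAY.

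In YUMM3.3-bearing marrow 5 of 24 WNT sets (20.8%) were called higher, against 9.68% of all listed sets, and 2 (8.33%) were called lower, against 6.52%, which is near the general share. The 5 higher sets were the set for assembly of beta-catenin with TCF, at a deposited NES of 2.64, TCF-dependent signalling at 2.14, beta-catenin-independent signalling at 1.98, the whole WNT map at 1.96 and beta-catenin breakdown at 1.90. The assembly set is on the histone list and the other 4 are on the proteasome list. Histone sets stood at the same side: REACTOME_DNA_METHYLATION, whose genes include core histones, had a deposited NES of 2.82. Its part in these calls was not tested.

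The 2 lower sets covered relay of the signal and the marking of beta-catenin. PID_WNT_CANONICAL_PATHWAY, ligands, receptors and the proteins that relay their signal, had a deposited NES of -1.86 (q = 0.0159) over 20 genes. REACTOME_BETA_CATENIN_PHOSPHORYLATION_CASCADE, the kinases and scaffolds that mark beta-catenin for breakdown, had -1.87 (q = 0.0148) over 15 genes, with 47% of them in the deposited leading edge. So within a single comparison the phosphorylation set was lower and the breakdown set, which adds the proteasome, was higher. Of the 19 WNT sets on neither list, 5 had a positive NES, with a median of -1.12.

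The direct marrow comparison called 5 WNT sets. In B16F10-bearing against YUMM3.3-bearing marrow 4 of 24 WNT sets were lower in the deposited table, against 8.40% of all listed sets, and 1 was higher, against 8.09%. The assembly set had a deposited NES of -2.71 with q listed at 0 and ranked at place 16 of 1876 sets with negative NES. TCF-dependent signalling (-2.04), the whole WNT map (-1.86) and beta-catenin-independent signalling (-1.69) followed in the deposited table. PID_WNT_CANONICAL_PATHWAY was the higher set, with a deposited NES of 2.00 (q = 0.00474). The phosphorylation cascade had 1.63 and was not called.

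Spleen gave few WNT calls. Higher were 1 of 24 with B16F10, against 16.6% of all listed sets, 2 with YUMM3.3, against 15.6%, and 0 between the tumours, against 9.63%, so the WNT shares are below the general ones. KENNY_CTNNB1_TARGETS_UP, genes raised by active beta-catenin in mouse mammary cells, was the single WNT set outside the names ending in DN called with B16F10, at a deposited NES of 1.73 (q = 0.0183) against healthy spleen. With YUMM3.3 it had 1.76 (q = 0.0107), and BILD_CTNNB1_ONCOGENIC_SIGNATURE, from human mammary cells expressing CTNNB1, had 1.70 (q = 0.0175). The deposited NES of the BILD set with B16F10 was -1.43 and was not called, and the direct comparison in spleen gave -1.66, also not called. No WNT set was called lower in a spleen comparison, beside 1.60% of all listed sets with B16F10, 5.31% with YUMM3.3 and 1.47% between the tumours. FIRESTEIN_CTNNB1_PATHWAY, genes that colon cancer cells need for beta-catenin activity, and WNT_SIGNALING were called in none of the 7 comparisons, with deposited NES from -1.19 to 1.56 and from -1.34 to 1.12.

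The curated WNT maps are given in the same way, starting with ligands and receptors. WNT ligand biogenesis and trafficking had deposited NES of 1.08 with B16F10, 0.77 with YUMM3.3 and 0.85 between the tumours in marrow, 1.20 with B16F10, 0.57 with YUMM3.3 and 1.01 between the tumours in spleen, and 1.46 in the lines. The set of secreted WNT antagonists had deposited NES of -0.47 with B16F10, 1.14 with YUMM3.3 and -1.06 between the tumours in marrow, 0.97 with B16F10, -0.93 with YUMM3.3 and 1.06 between the tumours in spleen, and 1.56 in the lines. PID_WNT_SIGNALING_PATHWAY had deposited NES of 1.33 with B16F10, 0.93 with YUMM3.3 and -0.61 between the tumours in marrow, 1.34 with B16F10, -1.29 with YUMM3.3 and 1.44 between the tumours in spleen, and 1.56 in the lines. No set of these 3 was called.

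Relay of the signal and the branches without beta-catenin follow. PID_WNT_CANONICAL_PATHWAY had deposited NES of -0.70 with B16F10, -1.86 with YUMM3.3 and 2.00 between the tumours in marrow, -1.10 with B16F10, 0.82 with YUMM3.3 and -1.18 between the tumours in spleen, and 1.23 in the lines. PID_WNT_NONCANONICAL_PATHWAY had deposited NES of 0.83 with B16F10, -1.16 with YUMM3.3 and 1.28 between the tumours in marrow, -1.29 with B16F10, 0.90 with YUMM3.3 and -1.03 between the tumours in spleen, and 1.31 in the lines. Beta-catenin-independent signalling had deposited NES of 1.61 with B16F10, 1.98 with YUMM3.3 and -1.69 between the tumours in marrow, 1.14 with B16F10, -0.96 with YUMM3.3 and 1.07 between the tumours in spleen, and 1.01 in the lines. The noncanonical PID set was called in no comparison, while the Reactome set of the same branch, on the proteasome list, was called in all 3 of marrow.

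Destruction of beta-catenin is covered by 3 sets. The phosphorylation cascade had deposited NES of 1.12 with B16F10, -1.87 with YUMM3.3 and 1.63 between the tumours in marrow, 0.82 with B16F10, 0.54 with YUMM3.3 and 0.74 between the tumours in spleen, and 0.90 in the lines. PID_BETA_CATENIN_DEG_PATHWAY had deposited NES of -0.71 with B16F10, -1.40 with YUMM3.3 and 1.37 between the tumours in marrow, -1.55 with B16F10, -0.60 with YUMM3.3 and -1.31 between the tumours in spleen, and 0.91 in the lines. Beta-catenin breakdown had deposited NES of 1.90 with B16F10, 1.90 with YUMM3.3 and -1.62 between the tumours in marrow, 1.60 with B16F10, -1.00 with YUMM3.3 and 1.31 between the tumours in spleen, and 0.81 in the lines. The PID set of this step was called in no comparison.

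Nuclear steps have their own sets. The assembly of beta-catenin with TCF had deposited NES of -1.18 with B16F10, 2.64 with YUMM3.3 and -2.71 between the tumours in marrow, 0.92 with B16F10, 1.36 with YUMM3.3 and -1.27 between the tumours in spleen, and 1.18 in the lines. The deactivation of that complex had deposited NES of -1.76 with B16F10, 0.90 with YUMM3.3 and -1.21 between the tumours in marrow, 0.92 with B16F10, -1.31 with YUMM3.3 and 1.19 between the tumours in spleen, and 1.11 in the lines. PID_BETA_CATENIN_NUC_PATHWAY had deposited NES of -1.28 with B16F10, -1.01 with YUMM3.3 and 0.91 between the tumours in marrow, -1.37 with B16F10, -1.25 with YUMM3.3 and -1.03 between the tumours in spleen, and 1.06 in the lines. Assembly, on the histone list, had the widest span of these, from -2.71 to 2.64.

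Maps of the whole pathway close the list. The whole WNT map had deposited NES of 1.39 with B16F10, 1.96 with YUMM3.3 and -1.86 between the tumours in marrow, 1.05 with B16F10, 1.09 with YUMM3.3 and 0.80 between the tumours in spleen, and 1.29 in the lines. TCF-dependent signalling had deposited NES of 1.52 with B16F10, 2.14 with YUMM3.3 and -2.04 between the tumours in marrow, 1.21 with B16F10, 1.20 with YUMM3.3 and 0.87 between the tumours in spleen, and 1.32 in the lines. Both of these maps are on the proteasome list. WNT signalling in cancer had deposited NES of 1.06 with B16F10, -1.63 with YUMM3.3 and 1.55 between the tumours in marrow, 0.81 with B16F10, 0.72 with YUMM3.3 and 0.73 between the tumours in spleen, and 1.28 in the lines. KEGG_WNT_SIGNALING_PATHWAY had deposited NES of -1.41 with B16F10, -1.19 with YUMM3.3 and 1.04 between the tumours in marrow, -1.14 with B16F10, -1.10 with YUMM3.3 and -0.93 between the tumours in spleen, and 1.24 in the lines. BIOCARTA_WNT_PATHWAY had deposited NES of -0.98 with B16F10, -1.12 with YUMM3.3 and 1.08 between the tumours in marrow, -0.99 with B16F10, -0.61 with YUMM3.3 and -0.88 between the tumours in spleen, and 1.10 in the lines. These KEGG, BIOCARTA and cancer maps were called in no comparison.

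The hedgehog calls were all on maps that list the proteasome. In B16F10-bearing marrow 3 of 8 hedgehog sets were higher than in healthy marrow, against 20.1% of all listed sets, and 0 were lower, against 5.00%. Their deposited NES were 2.31 for REACTOME_HEDGEHOG_LIGAND_BIOGENESIS, the making and quality control of the ligand, 2.07 for the on state and 1.73 for the off state. In YUMM3.3-bearing marrow, set against the same healthy libraries, ligand biogenesis had 2.24, the on state 1.91 and the off state 1.66, and all 3 were called higher, against 9.68% of all listed sets, with 0 lower, against 6.52%. The on and off states oppose each other in the pathway, and both were higher with B16F10 and with YUMM3.3. The median over the 8 sets with B16F10 was 0.40, and -1.05 when the proteasome list was left out.

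Ligand biogenesis was also the single hedgehog set called in spleen. Its deposited NES was 1.89 (q = 0.00268) with B16F10 and 1.64 (q = 0.029) with YUMM3.3. This is 1 of 8 sets with each tumour, or 12.5%, against 16.6% of all listed sets higher with B16F10 and 15.6% with YUMM3.3, so the share is near the general one. It was the single hedgehog set called in the direct marrow comparison as well, lower in B16F10-bearing than in YUMM3.3-bearing marrow at -1.84 (q = 0.0105), against 8.40% of all listed sets lower. Together with NOTCH4 breakdown it was called in 5 of the 7 comparisons, more than any other of the 58 sets.

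The 4 hedgehog sets on neither list were called in no comparison. In B16F10-bearing marrow the deposited NES was -1.09 for KEGG_HEDGEHOG_SIGNALING_PATHWAY, -1.01 for PID_HEDGEHOG_GLI_PATHWAY, which centres on the GLI factors, and -0.76 for PID_HEDGEHOG_2PATHWAY. It was -1.31 for YAUCH_HEDGEHOG_SIGNALING_PARACRINE_UP, an experimental set whose direction relative to hedgehog activity was not checked. In YUMM3.3-bearing marrow the same 4 sets had 1.03, 0.82, -0.80 and 0.93 in the deposited table.

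The curated hedgehog maps on the proteasome list had these values. Ligand biogenesis had deposited NES of 2.31 with B16F10, 2.24 with YUMM3.3 and -1.84 between the tumours in marrow, 1.89 with B16F10, 1.64 with YUMM3.3 and 1.10 between the tumours in spleen, and 0.67 in the lines. The on state had deposited NES of 2.07 with B16F10, 1.91 with YUMM3.3 and -1.57 between the tumours in marrow, 1.61 with B16F10, 1.42 with YUMM3.3 and 0.77 between the tumours in spleen, and -0.87 in the lines. The off state had deposited NES of 1.73 with B16F10, 1.66 with YUMM3.3 and -1.48 between the tumours in marrow, 1.51 with B16F10, 0.86 with YUMM3.3 and 1.09 between the tumours in spleen, and -0.99 in the lines. The whole hedgehog map had deposited NES of 1.55 with B16F10, 1.46 with YUMM3.3 and -1.26 between the tumours in marrow, 1.33 with B16F10, 0.98 with YUMM3.3 and 0.85 between the tumours in spleen, and -0.92 in the lines. The whole map was called in no comparison.

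The curated hedgehog sets without the proteasome hold ligands, Patched, Smoothened and GLI factors. KEGG_HEDGEHOG_SIGNALING_PATHWAY had deposited NES of -1.09 with B16F10, 1.03 with YUMM3.3 and -1.20 between the tumours in marrow, 0.85 with B16F10, 0.87 with YUMM3.3 and -0.87 between the tumours in spleen, and 1.43 in the lines. PID_HEDGEHOG_2PATHWAY had deposited NES of -0.76 with B16F10, -0.80 with YUMM3.3 and 0.81 between the tumours in marrow, 0.80 with B16F10, 0.91 with YUMM3.3 and -0.88 between the tumours in spleen, and 1.11 in the lines. PID_HEDGEHOG_GLI_PATHWAY had deposited NES of -1.01 with B16F10, 0.82 with YUMM3.3 and -0.69 between the tumours in marrow, -1.10 with B16F10, 1.07 with YUMM3.3 and -1.43 between the tumours in spleen, and 1.20 in the lines. Their deposited sizes ran from 20 to 52 genes.

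The lists can be read across pathways. The 11 proteasome-list sets had 7 calls higher, against 20.1% of all listed sets, and 0 lower in B16F10-bearing marrow, with a median deposited NES of 1.73. They had 10 higher, against 9.68%, and 0 lower in YUMM3.3-bearing marrow, with a median of 1.98. In the direct marrow comparison 0 were higher and 7 were lower, against 8.40%, with a median of -1.84. KEGG_PROTEASOME itself had deposited NES of 2.52 with B16F10, 2.33 with YUMM3.3 and -2.00 between the tumours. WONG_PROTEASOME_GENE_MODULE had 2.02, 1.66 and -1.43 in the same order, the last not called. The Reactome set for ubiquitination and proteasome degradation in antigen processing differed. It had 1.62 with B16F10, which was called, and -1.14 with YUMM3.3 and 1.43 between the tumours, which were not. In spleen 2 of the 11 (18.2%) were higher with each tumour, which is about the share of all listed sets, 16.6% with B16F10 and 15.6% with YUMM3.3. These stand beside 2.06 for KEGG_PROTEASOME with B16F10 and 1.83 with YUMM3.3. KEGG_RIBOSOME, a set of other general machinery, had 2.12 with B16F10, 3.13 with YUMM3.3 and -3.20 between the tumours in marrow, all called. In spleen it had 1.24 with B16F10, not called, and -1.84 with YUMM3.3 and 1.68 between the tumours, both called. Its relation to the sets on the 2 lists was not tested.

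In marrow the 2 histone-list sets differed between the tumours. With B16F10 neither was called against healthy marrow, at deposited NES of -1.18 for beta-catenin assembly and 1.40 for the pre-NOTCH set, while REACTOME_DNA_METHYLATION had 2.07. With YUMM3.3 both were higher, at 2.64 and 2.43, beside 2.82 for REACTOME_DNA_METHYLATION. In the direct comparison both were lower with B16F10, at -2.71 and -2.35, beside -2.84. REACTOME_DNA_METHYLATION was the most extreme of 4 histone sets read beside the members. In marrow these 4 ran from 1.38 to 2.07 with B16F10, 2.47 to 2.82 with YUMM3.3 and -2.84 to -2.51 between the tumours. REACTOME_HDACS_DEACETYLATE_HISTONES had the 1.38 with B16F10 (q = 0.126) and was not called. In spleen the direct comparison gave -1.27 for assembly and 0.86 for the pre-NOTCH set, neither called. The 4 histone sets beside them ran from -1.45 to 1.53 there, and none was called. The marrow comparisons share libraries, so their values are not separate evidence, and the genes behind each value were not analysed here.

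**Figure D3:**
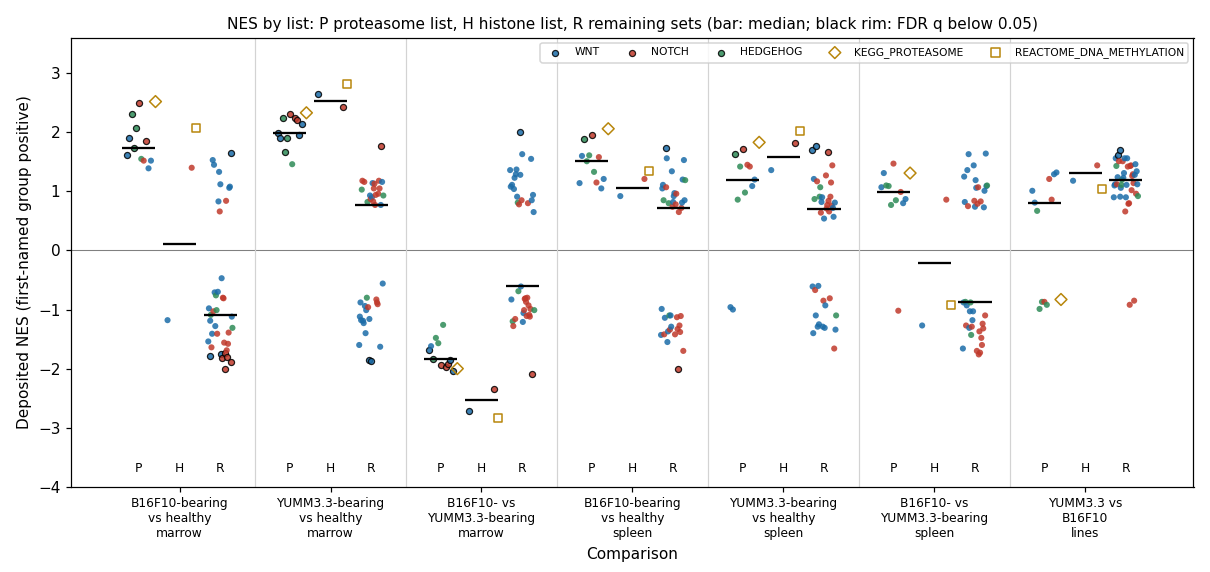
Deposited NES of the 52 sets whose names do not end in DN, split by proteasome list, histone list and neither, in the 7 comparisons; points are sets, coloured by pathway, with a black rim for a deposited FDR q below 0.05, bars are medians, and open symbols give KEGG_PROTEASOME and REACTOME_DNA_METHYLATION. In both comparisons of tumour-bearing with healthy marrow the proteasome-list points and KEGG_PROTEASOME lie above 0, while the 39 sets on neither list have medians of -1.09 with B16F10 and 0.77 with YUMM3.3.

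The 6 names ending in DN held 7 calls, all of them higher. In the comparisons with these calls, 8.09% to 20.1% of all listed sets were called higher. FEVR_CTNNB1_TARGETS_DN, the genes that fall when Ctnnb1 is deleted in mouse intestine and a list with many proliferation genes, was higher in 4 comparisons. Its deposited NES was 2.95 with q listed at 0 in YUMM3.3-bearing against healthy spleen. It was 2.04 (q = 0.000203) in B16F10-bearing against healthy spleen, 1.67 (q = 0.0293) in B16F10-bearing against healthy marrow and 1.89 (q = 0.0113) in B16F10-bearing against YUMM3.3-bearing marrow. In YUMM3.3-bearing against healthy marrow it had -1.65 and was not called.

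A cell cycle set and a proliferation set are given beside these values. KEGG_CELL_CYCLE had deposited NES of 2.61 and 2.11 in YUMM3.3-bearing and B16F10-bearing against healthy spleen. In marrow it had 1.35 with B16F10, which was not called (q = 0.143), and -1.74 with YUMM3.3 against healthy animals, and 1.94 in the direct comparison. In the direct spleen comparison it had 0.96 and the FEVR set -0.95, neither called, with opposite signs. ROSTY_CERVICAL_CANCER_PROLIFERATION_CLUSTER had 3.55 and 2.94 in YUMM3.3-bearing and B16F10-bearing against healthy spleen. In marrow it had 2.17 with B16F10 (q = 0.000152), -1.47 with YUMM3.3, not called, and 1.87 in the direct comparison. In the direct spleen comparison it had 1.62 and was not called. The part of these sets in the FEVR result was not tested.

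VILIMAS_NOTCH1_TARGETS_DN, the genes that active NOTCH1 lowers in blood progenitors, was higher in B16F10-bearing spleen. Its deposited NES was 2.03 (q = 0.000237) against healthy spleen and 2.17 (q = 6.2e-05) against YUMM3.3-bearing spleen, with 61% of its 23 genes in the leading edge of the second. Both values pass the stricter family-wise measure, at p of 0.049 and 0.002. The matching UP list had deposited NES of -1.70 and -1.10 in these comparisons and was not called. The DN sets of KENNY (deposited NES from -1.13 to 1.30), CHIANG (-1.53 to 1.48) and YAUCH (-1.59 to 1.14) were called in no comparison.

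Marrow and spleen can be set side by side, since they share no library, although the labels do not say whether they came from the same animals. With B16F10 against healthy animals, 38 of 52 sets had the same sign of NES in both tissues, which is 73.1% beside 70.2% of all listed sets. With YUMM3.3 it was 32 of 52, or 61.5% beside 43%. For B16F10 against YUMM3.3 it was 24 of 52, or 46.2% beside 44.3%. Among NOTCH sets, 16 of 20 had the same sign with B16F10, 14 with YUMM3.3 and 13 between the tumours. Of 24 WNT sets it was 17, 12 and 9 in the same order, and of 8 hedgehog sets 5, 6 and 2.

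**Figure D4:**
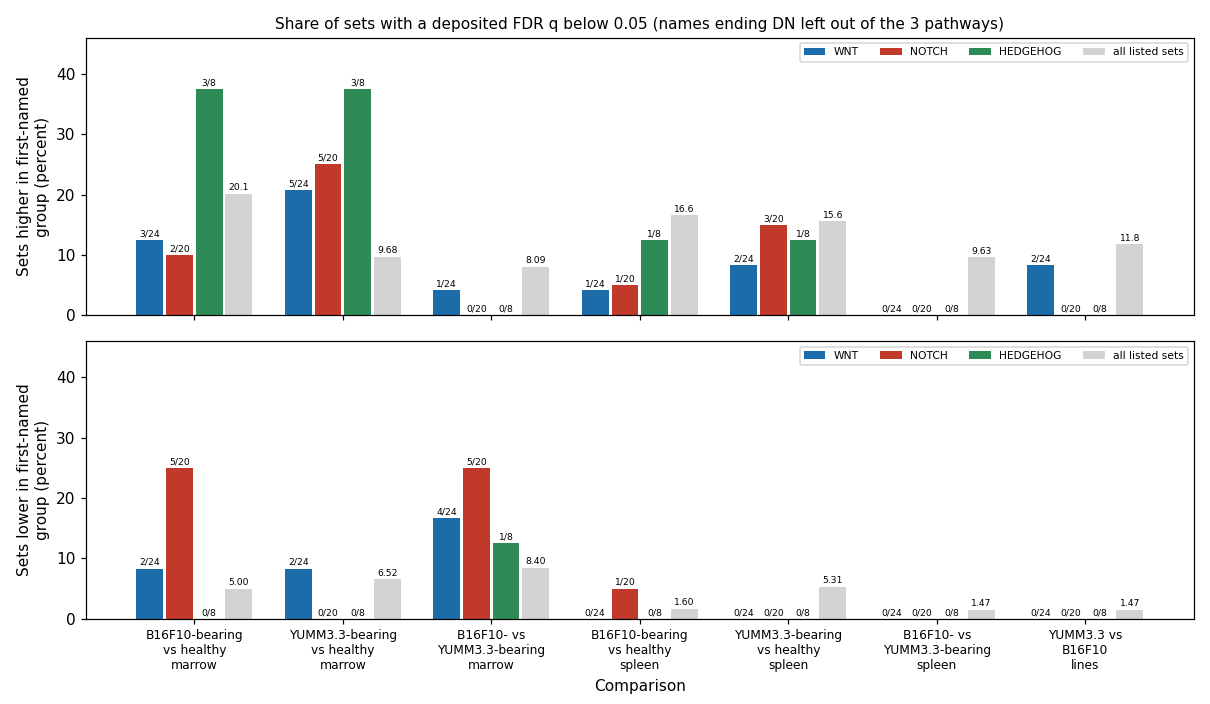
Percent of sets called higher (top panel) and lower (bottom panel) in the first-named group at a deposited FDR q below 0.05, by pathway and comparison, names ending in DN left out; grey bars give all listed sets. NOTCH sets are called lower more often than all listed sets in B16F10-bearing marrow (5 of 20 beside 5.00%), and no NOTCH or hedgehog set is called in the cell lines.

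The cultured lines were compared as YUMM3.3 against B16F10. Of 24 WNT sets 2 were called, both higher in YUMM3.3, against 11.8% of all listed sets higher and 1.47% lower. ONDER_CDH1_SIGNALING_VIA_CTNNB1, genes that depend on beta-catenin after E-cadherin loss in mammary cells, had a deposited NES of 1.70 (q = 0.0185). KENNY_CTNNB1_TARGETS_UP had 1.61 (q = 0.0394). None of the 20 NOTCH and 8 hedgehog sets was called in the lines. All 24 WNT sets had a positive NES, between 0.81 and 1.70, as did 17 of 20 NOTCH and 5 of 8 hedgehog sets, and 73.3% of all listed sets were positive. Among the DN names, NGUYEN_NOTCH1_TARGETS_DN, genes lowered by NOTCH1 in keratinocytes, was higher in YUMM3.3 at a deposited NES of 1.64 (q = 0.033).

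The calls differ in strength. Of the 60 calls over all 58 sets, 15 also had a deposited family-wise p below 0.05. Many sets of a pathway share genes, and the Reactome maps are nested, so the counts are not counts of independent results.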

How the data were processed

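RNA was sequenced from 14 myeloid and 6 cell line libraries. The submitters' processing notes list DESeq2 1.22.2, featureCounts 1.6.0, STAR 2.7.1a, FastQC 0.11.8 and the build mm10, with no role for any of them. The analysed files were 14 enrichment reports, 1 per direction for each of 7 comparisons. Per the file headers, the deposited values are an enrichment score for each set, its normalised score (NES), a nominal p-value, a false discovery rate q-value, a family-wise p-value and the leading edge. How genes were ranked and what was permuted were not given in the sources. Among nonzero deposited nominal p the lowest was 0.00103, while relabelling 3 against 3 libraries gives at least 0.05, 3 against 2 at least 0.1 and 2 against 2 at least 0.167. A value of 0.00103 therefore cannot have come from relabelling the libraries.

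Reports of tumour-bearing against healthy tissue hold negative deposited NES and were turned to make positive values higher in the tumour-bearing animals. The cell line reports were read by their up and down labels. As a check, the sign of B16F10 against YUMM3.3 equalled that of the difference of both NES against healthy for 77% of 3883 sets in marrow and 85.4% in spleen. An error shared by all 3 comparisons of a tissue would escape this check, which leaves the lines untouched. The sign, the counts and the medians were computed with Python 3.11.15, pandas 2.3.3 and matplotlib 3.10.9, and the functions were checked on synthetic reports. No test was added, and no library was weighted by depth, which is unknown.

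Sets named are every curated map of the 3 pathways, with all comparisons, and every member with a deposited q below 0.05, and a few more are given as values. The members and lists were chosen with earlier results of these data known. The cell cycle, proliferation, lymphocyte receptor and ribosome sets were added after values had been seen. The alternatives were a q threshold of 0.25, the family-wise p, and leaving out or keeping groups of names. The set left out for MYC is not reported here. No sequence is shown, since no member gene was analysed.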

Additional observations from a re-analysis of the deposited data

How the results depend on the processing

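No paired analysis was possible because the reports hold no values per library, and leaving out a replicate could not be run for the same reason. The counts below are given as the alternative, with the value at a deposited q below 0.05 and names ending in DN left out in brackets.

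At a q below 0.25, WNT sets higher were 8 (3) and lower 4 (2) in B16F10-bearing against healthy marrow, lower 5 (2) in YUMM3.3-bearing against healthy marrow, and higher 6 (1) in B16F10-bearing against YUMM3.3-bearing marrow. In spleen they were higher 5 (1) and lower 2 (0) with B16F10, lower 5 (0) with YUMM3.3, and higher 4 (0) and lower 1 (0) between the tumours. In the lines 11 (2) were higher. NOTCH sets were higher 4 (2) and lower 11 (5) with B16F10 in marrow, higher 2 (1) and lower 4 (1) with B16F10 in spleen, higher 7 (3) and lower 1 (0) with YUMM3.3 in spleen, higher 1 (0) and lower 5 (0) between the tumours in spleen, and higher 7 (0) in the lines. Hedgehog sets were lower 1 (0) with B16F10 in marrow, lower 3 (1) between the tumours in marrow, higher 4 (1) with B16F10 and 2 (1) with YUMM3.3 in spleen, and higher 1 (0) in the lines. The share of all listed sets at a q below 0.25 was not computed. Whether these rises exceed the general rise is therefore not known.

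Without the proteasome list, WNT sets higher were 1 (3) with B16F10 and 1 (5) with YUMM3.3 in marrow, and lower 1 (4) between the tumours. NOTCH sets were higher 0 (2) with B16F10 and 2 (5) with YUMM3.3 in marrow, lower 2 (5) between the tumours, and higher 0 (1) with B16F10 in spleen. Hedgehog sets were 0 (3) with each tumour in marrow, 0 (1) between the tumours, and 0 (1) with each tumour in spleen. Median NES changed sign to -0.71 (0.18) for WNT and -1.05 (0.40) for hedgehog with B16F10 in marrow, and to -0.87 (0.81) for hedgehog between the tumours in spleen. The construction of this alternative, which removes 11 sets, sets these counts.

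With names ending in DN kept, WNT sets were higher 2 (1) between the tumours in marrow and 2 (1) with B16F10 in spleen, and NOTCH sets higher 2 (1) with B16F10 in spleen, 1 (0) between the tumours in spleen and 1 (0) in the lines. Medians changed sign to -0.47 (0.18) for WNT and -0.76 (0.40) for hedgehog with B16F10 in marrow, 0.54 (-0.03) for WNT with YUMM3.3 in spleen and 0.69 (-0.23) for NOTCH with B16F10 in spleen. Leaving out names with DEGRADATION kept all 42 counts within 1.5 times and turned 2 medians, to -0.47 (0.18) and 0.54 (-0.03) for the same WNT comparisons. At a family-wise p below 0.05, 15 of 60 calls were made.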

Other observations

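Some sets describe the same pathways under names that hold none of the words searched. Breakdown steps of WNT signalling were higher in marrow of tumour-bearing than of healthy animals: REACTOME_DEGRADATION_OF_AXIN had deposited NES of 2.54 with B16F10 and 2.17 with YUMM3.3, and REACTOME_DEGRADATION_OF_DVL had 2.52 with B16F10 and 2.18 with YUMM3.3. The breakdown of GLI1 by the proteasome, a hedgehog step, had 2.36 with B16F10 and 2.15 with YUMM3.3. Beside these sets, KEGG_PROTEASOME had 2.52 with B16F10 and 2.33 with YUMM3.3 in marrow, and the part of the proteasome genes was not tested.

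REACTOME_PCP_CE_PATHWAY, for the planar cell polarity branch of WNT signalling, which orients cells in a tissue, had deposited NES of 2.22 with B16F10 and 2.21 with YUMM3.3 in marrow. Between the tumours in marrow it had -1.75, beside -2.00 for KEGG_PROTEASOME. In spleen it had 1.64 with B16F10, which was called, and 0.91 with YUMM3.3, which was not. The part of proteasome genes in these values was not tested. The disassembly of the destruction complex had 1.18 with B16F10 and -1.39 with YUMM3.3 in marrow and was not called. LEE_TARGETS_OF_PTCH1_AND_SUFU_UP, genes tied to the hedgehog inhibitors Patched and SUFU, had -0.99 with B16F10 and 0.77 with YUMM3.3 in marrow and was not called.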
